A study of Drosophila melanogaster with 3 samples.

Results

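The 91 protein-coding genes described here lie in the pericentric heterochromatin of 4 chromosome arms of Drosophila melanogaster, out of 13945 protein-coding genes on the 6 main arms. The rule uses position only, from Ensembl gene models on the Release 6 assembly (dm6): the most upstream transcription start site (TSS) had to lie above 22160000 on 2L, above 22960000 on 3L, below 4170000 on 3R or above 22600000 on X. RpL5 and RpL15, which also lie in these segments, were left out by the rule. The arms contributed 20 genes (2L), 37 genes (3L), 11 genes (3R) and 23 genes (X).

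Chromatin immunoprecipitation followed by sequencing mapped the protein YL-1 in whole embryos of both sexes, 0 to 24 h old, from flies of a transgenic line that carry YL-1 with GFP at its carboxy terminus. An antibody against GFP was used on 3 biological replicates, which form 1 group with no control group among them. The labels do not say which promoter drives the fusion protein, and whole embryos mix all cell types of these stages. The data are lists of enriched regions with a signal value, so the sequencing depth behind each value is unknown.

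Pericentric heterochromatin is the repeat-rich, compact DNA on either side of a centromere, marked by methylated lysine 9 of histone H3 and by the protein HP1a. It is poor in genes, yet the genes it holds include essential ones, often with very long introns filled by remnants of transposons, and some of them need this environment for normal activity. YL-1 belongs to the Domino/Tip60 remodelling complexes, which place the histone variant H2Av in nucleosomes in exchange for H2A. In Drosophila, H2Av also takes part in the formation of heterochromatin.

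The label of the segments could be checked only on their sequence, since no chromatin mark was measured. The 4 segments together spanned 11.62 Mb, of which 41.1% was repeat-masked, against 18.2% in the rest of the 6 arms. They held 8.01 protein-coding genes per Mb, RpL5 and RpL15 included, against 113 per Mb elsewhere. The repeat-masked share within 5 kb of the TSS had a median of 30.6% (quartiles 22.1% and 39.2%) at the pericentric genes, against 11.9% (8.82% and 15.7%) at the other genes. Genes of chromosome 4, a small chromosome that is also rich in repeats, had a median of 26.7%.

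The sequences below show the start sites on which the results turn: the promoters of the 3 genes with the strongest peaks, the promoter of the longest gene, the strongest promoter outside the authors' reproducible list that holds a DRE, and a start site shared by a divergent gene pair. Each runs from 200 bases before to 50 bases after the TSS nearest the YL-1 summit, or the most upstream TSS for Myo81F, on the strand of the gene, in the RefSeq copy of Release 6 (dm6). Capitals mark matches to 6 motifs: the DRE (TATCGATA), the core of motif 1 (GGTCACAC), an E-box (CAGCTG) and GAGAG on both strands, and a TATA box (TATAAA) and an initiator (TCAGTT) on the gene strand. Clamp lies on the minus strand at chr2L:22169094-22169343, RpL10 on the minus strand at chr3L:23095422-23095671, RpL21 on the minus strand at chr2L:22247784-22248033, Myo81F on the plus strand at chr3R:566876-567125, vtd on the plus strand at chr3L:27136325-27136574 and Coa7 on the plus strand at chrX:23013295-23013544.
Clamp: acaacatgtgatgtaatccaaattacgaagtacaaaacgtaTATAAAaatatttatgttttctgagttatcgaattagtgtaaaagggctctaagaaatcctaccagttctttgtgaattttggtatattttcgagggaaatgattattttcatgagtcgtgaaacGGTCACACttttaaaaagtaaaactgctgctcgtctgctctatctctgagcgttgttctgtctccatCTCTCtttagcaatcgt
RpL10: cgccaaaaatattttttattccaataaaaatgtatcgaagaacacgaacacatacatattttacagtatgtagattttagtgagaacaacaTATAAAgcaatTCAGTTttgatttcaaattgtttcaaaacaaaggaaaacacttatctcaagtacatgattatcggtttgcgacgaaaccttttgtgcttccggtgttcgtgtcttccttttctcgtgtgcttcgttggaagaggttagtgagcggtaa
RpL21: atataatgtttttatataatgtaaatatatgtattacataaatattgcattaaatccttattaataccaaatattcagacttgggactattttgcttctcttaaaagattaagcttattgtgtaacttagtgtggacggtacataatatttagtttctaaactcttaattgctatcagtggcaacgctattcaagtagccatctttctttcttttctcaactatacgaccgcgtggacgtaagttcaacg
Myo81F: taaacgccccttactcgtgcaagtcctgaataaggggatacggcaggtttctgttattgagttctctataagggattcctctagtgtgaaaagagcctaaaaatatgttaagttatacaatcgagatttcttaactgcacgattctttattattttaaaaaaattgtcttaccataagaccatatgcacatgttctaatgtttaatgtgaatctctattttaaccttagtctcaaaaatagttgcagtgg
vtd: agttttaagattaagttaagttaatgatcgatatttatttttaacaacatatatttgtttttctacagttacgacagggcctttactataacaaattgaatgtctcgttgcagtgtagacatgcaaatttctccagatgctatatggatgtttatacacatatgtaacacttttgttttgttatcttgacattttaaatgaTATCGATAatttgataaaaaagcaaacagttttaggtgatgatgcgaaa
Coa7: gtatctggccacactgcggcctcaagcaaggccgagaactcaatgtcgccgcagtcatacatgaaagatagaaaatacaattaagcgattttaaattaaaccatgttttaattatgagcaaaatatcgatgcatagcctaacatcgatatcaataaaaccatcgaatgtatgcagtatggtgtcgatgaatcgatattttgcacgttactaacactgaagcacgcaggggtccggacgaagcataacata

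In the Clamp promoter the core of motif 1 begins 34 bases before the TSS. In the vtd promoter the DRE, bound in Drosophila by the factor Dref, begins 2 bases after the TSS. The RpL10 promoter holds a TATA box match at 109 bases before the TSS. The RpL21, Myo81F and Coa7 windows hold none of the 6 motifs in these letters, and no matches of different motifs overlap in the 6 windows.

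A gene is called bound here when a summit of the authors' list of reproducible peaks (irreproducible discovery rate, IDR) lies within 250 bp of any of its TSSs. Of the 91 pericentric genes, 13 were bound, or 14.3% (exact binomial 95% interval 7.83% to 23.2%), against 4642 of 13854 other protein-coding genes (33.5%) and against 33.4% of all genes. The 833 genes within 2 Mb on the distal side of the boundaries were bound at 30.9% and the 80 genes of chromosome 4 at 46.2%. The intervals cover the counting of genes only, and neighbouring genes can share a peak. With a 100 bp window the shares were 6.59% for pericentric and 23.7% for other genes. With the boundaries moved 500 kb, 6.98% of pericentric genes were bound (towards the centromere) or 21.8% (away from it).

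The replicates gave the same order at equal list length. Top regions are here the 5986 strongest of a replicate, a number equal to the length of the IDR list. Among them a summit stood at 19 pericentric genes in replicate 1 (20.9%, against 32.8% of all genes). It stood at 11 in replicate 2 (12.1%, against 31.3%) and at 12 in replicate 3 (13.2%, against 32.3%). The mean share was 15.4% ± 4.79 for pericentric genes and 32.2% ± 0.73 for other genes (SD, n = 3). The difference, pericentric minus other, was -11.9, -19.3 and -19.2 percentage points in replicates 1, 2 and 3, with a mean of -16.8 ± 4.24 points (SD, n = 3). It was lower in 3 of 3 replicates, and the two-sided exact sign-flip permutation test over replicates gave p = 0.25, the smallest p that 3 replicates allow.

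Among the top regions, replicate 1 stood apart from the others in these segments. It had 29 top regions there, against 14 each in replicates 2 and 3. Without replicate 1 the mean difference was -19.3 points. In the regions shared by replicates 2 and 3 the share was 8.79% for pericentric genes and 27.7% for other genes. Shared regions are a different measure from the IDR list, so these values do not compare directly with the shares bound.

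The difference was smaller in the full lists of 30000 regions each. A summit of the pooled list lay within 250 bp of a TSS of 41 pericentric genes (45.1%, interval 34.6% to 55.8%), against 52.2% of other genes, 45.0% of genes of the distal flank and 83.8% of chromosome 4 genes. Over all genes that share was 52.2%. In the full replicate lists the share was 43.2% ± 4.16 for pericentric genes and 50.9% ± 0.936 for other genes (SD, n = 3), a mean difference of -7.72 ± 3.81 points (exact sign-flip permutation p = 0.25, over the same 3 replicates). The pericentric share in these full lists was 45.1%, 38.5% and 46.2% in replicates 1, 2 and 3. Replicate 1 thus did not stand apart in the full lists, where replicate 2 had the lowest share. A summit in all 3 full replicate lists was found at 28 pericentric genes (30.8%), against 41.3% of all genes.

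**Figure D1:**
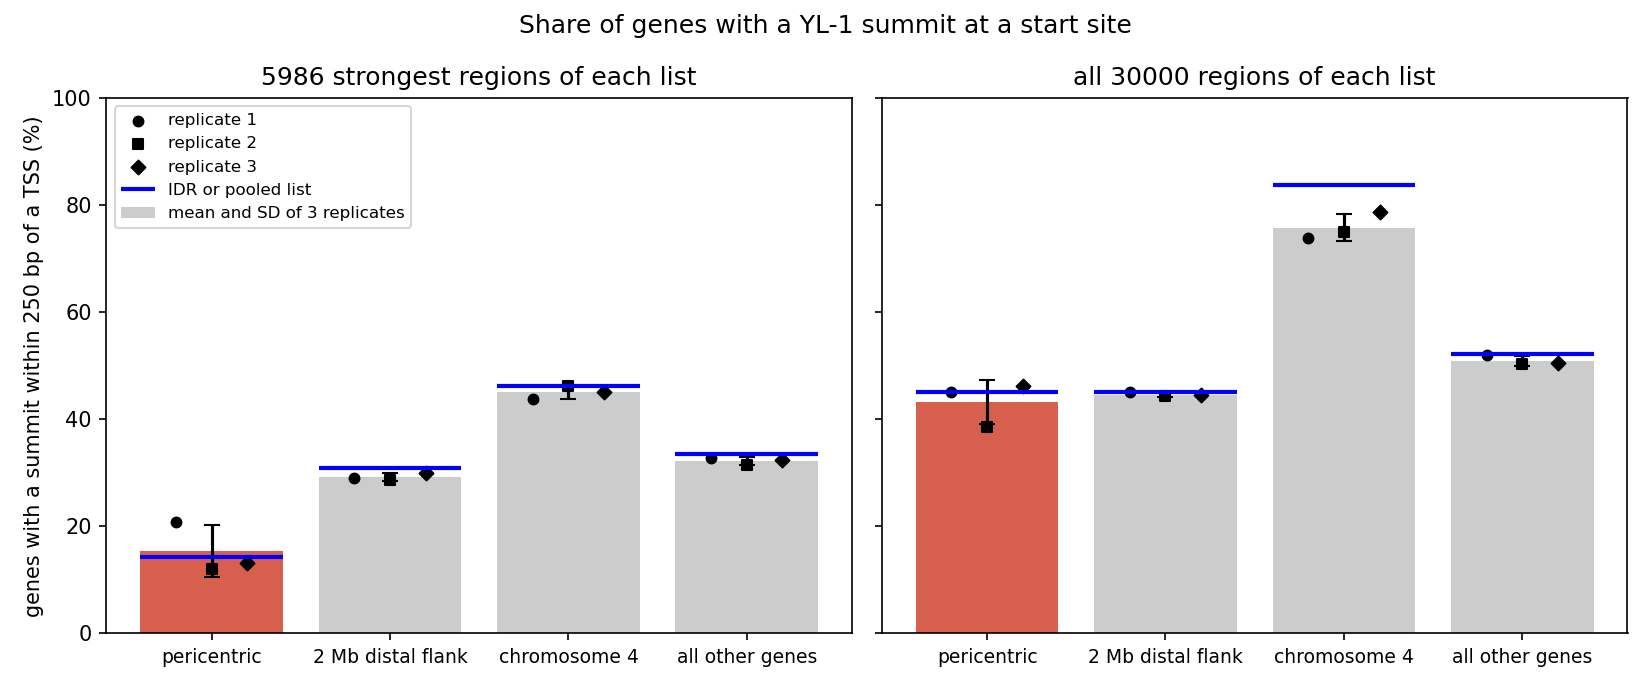
Share of genes (%) with a YL-1 summit within 250 bp of a TSS, for pericentric genes and 3 other sets, in the strongest 5986 regions (left) and all 30000 regions (right) of each list. Bars are the mean of 3 replicates with SD, points are replicates and the blue line is the IDR list (left) or pooled list (right); pericentric genes stand lowest on the left, at 15.4% ± 4.79, and close to the distal flank on the right.

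Most pericentric genes with a region had a weaker one. Of the 41 genes with a pooled region, 13 had one in the IDR list (31.7%, interval 18.1% to 48.1%), against 64.2% of other genes, 68.5% of genes in the distal flank and 55.2% of chromosome 4 genes. Up to rank 6000 of the pooled list, 14.3% of pericentric genes had a summit, against 30.9% in the distal flank and 33.6% of other genes. Up to rank 10000 the shares were 37.4%, 36.6% and 40.9% for the same sets. The pericentric segments held 0.25% of the regions at ranks 1 to 2000, 0.1% at ranks 2001 to 4000 and 0.453% at ranks 4001 to 5986, which is the end of the IDR list. They held 0.844% at ranks 5987 to 8000 and 0.8% at ranks 8001 to 10000, and between 0.45% and 0.52% further down. Of the 17 pericentric regions at ranks 5987 to 8000, 14 lay at a promoter, and of the 45 at ranks 20001 to 30000, 2 did.

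**Figure D2:**
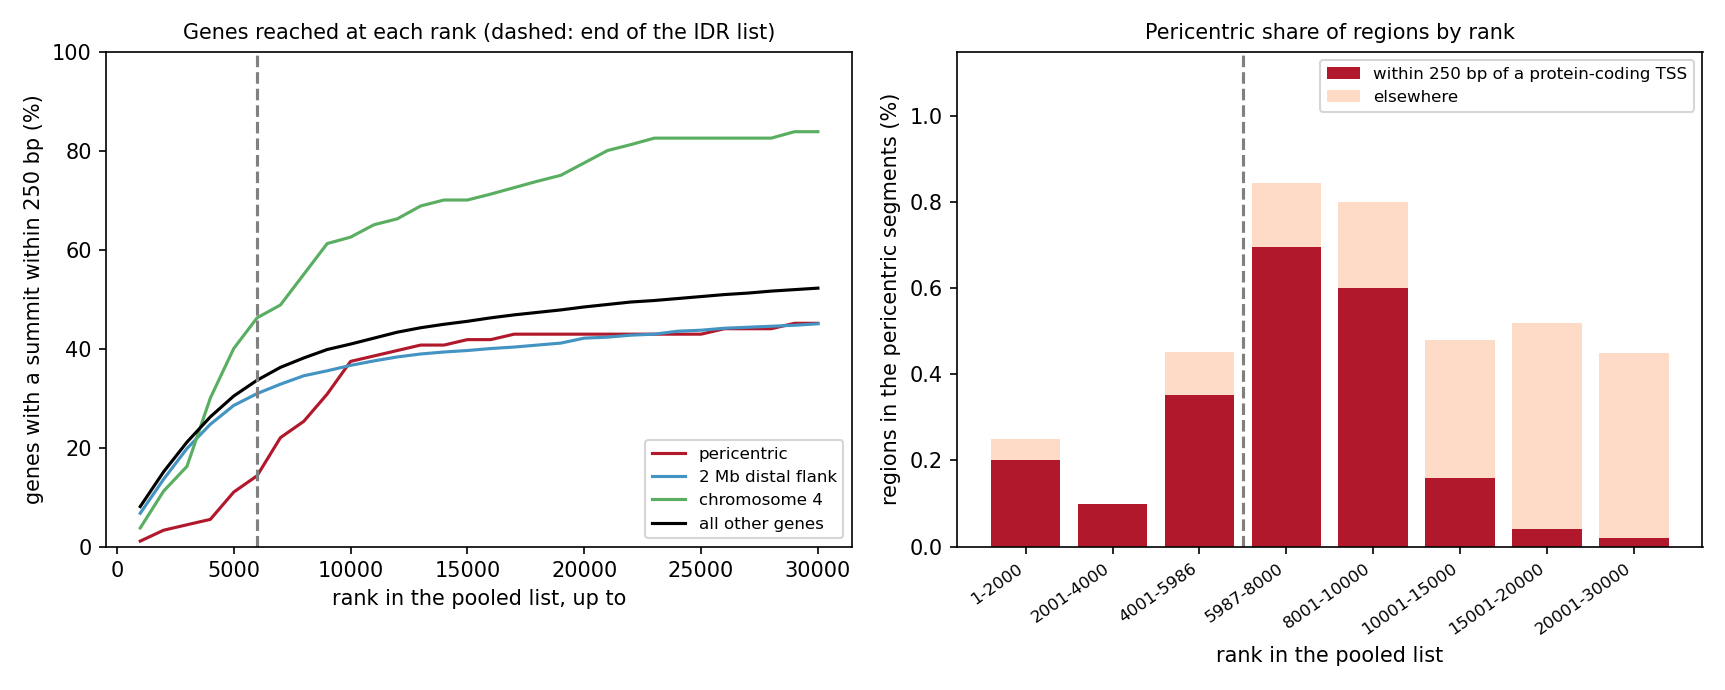
Left: share of genes (%) with a pooled summit within 250 bp of a TSS as the list is read from its strongest region downwards, for 4 sets of genes. Right: share of the pooled regions in each band of ranks that lies in the pericentric segments, split by whether the summit is within 250 bp of a protein-coding TSS; the share is highest, at 0.844%, just past the end of the IDR list (dashed).

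The 13 bound genes had weak peaks for bound genes. The median IDR signal was 166.7 at bound pericentric genes and 251.8 at the 4642 bound other genes, a ratio of 0.662. It was 195.3 at bound chromosome 4 genes, also below that of other genes, and 250.6 at bound genes of the distal flank. Of the 13, 4 lay above the median of all IDR peaks (218.5). Within the top regions the ratio of median signals was 0.746, 0.723 and 0.787 in replicates 1, 2 and 3 (mean 0.752 ± 0.0324, SD, n = 3; exact sign-flip permutation p = 0.25 on the log2 ratio, the smallest possible). With the difference in the full lists these were 3 comparisons, and with 3 replicates none can reach 0.05. With the boundaries moved 500 kb away from the centromere the ratio was 0.973 (exact sign-flip permutation p = 1.0).

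Clamp (FBgn0032979, 2L, 22165720 to 22169143, minus strand) had the strongest peak at a pericentric start site. It encodes a zinc-finger protein that binds GA repeats and recruits the dosage compensation complex to the X chromosome. Its IDR signal was 429.6 at rank 472, with the summit 219 bp downstream of the TSS shown above, inside the gene. In the replicates its signal was 122.4, 93.14 and 193.9, which is 1.88, 1.49 and 1.87 times the median of the top regions of replicates 1, 2 and 3. A second IDR peak overlapping it was stronger still, at 527.0 and rank 213, with its summit 419 bp from the TSS in repeat-masked sequence. The pooled list also had a weaker summit 17 bp from a TSS of Clamp. In replicates 1, 2 and 3 the nearest summits were 7, 13 and 3 bp away. Clamp is also the pericentric gene closest to the 2L boundary, 9.143 kb inside it. The nearest gene on the other side, dunk, and the genes nearest the other 3 boundaries on either side were not bound.

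The cytoplasmic ribosomal protein genes among the 91, RpL10 and RpL21, came next. RpL10 (FBgn0024733, 3L, 23093190 to 23095471, minus strand) had a signal of 330.9 at rank 1119, 60 bp from the TSS, and ranked 970, 1060 and 1528 in replicates 1, 2 and 3. RpL21 (FBgn0032987, 2L, 22247111 to 22247875, minus strand) had a signal of 291.2 at rank 1562, 191 bp from the nearest TSS, and ranked 1512, 1491 and 2100. Both encode proteins of the large ribosomal subunit. Their values were close from replicate to replicate, between 1.18 and 1.60 times the median of the top regions. For RpL21 the pooled list also had a weaker summit 10 bp from a TSS. In replicates 1, 2 and 3 its nearest summits were 8, 3 and 76 bp away.

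CG33217, on 3L, was the fourth and last bound gene above the median of the IDR list. Its signal was 244.7 at rank 2400, 38 bp from its TSS, and it ranked 1953, 4073 and 3043 in replicates 1, 2 and 3.

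The other 9 bound genes had signals between 144.6 and 196.1. ND-MLRQ, which encodes a subunit of respiratory complex I, had a signal of 196.1 at rank 3572 and a top region in all 3 replicates. Nubpl, whose human counterpart is an assembly factor of complex I, had a signal of 151.6 at rank 5259. In replicates 1, 2 and 3 it ranked 2808, 28268 and 5931, which in replicate 2 is near the end of the list. UQCR-11, a subunit gene of complex III, had a signal of 144.6 at rank 5610, the weakest of the 13, and a top region in replicates 1 and 2. The mitochondrial ribosomal protein gene mRpS5 had a signal of 166.7 at rank 4622 that rested on replicate 1 (rank 1234). It ranked 7788 in replicate 2 and had no region within 250 bp in replicate 3. Another complex I subunit gene among the 91, ND-AGGG, had no pooled summit within 250 bp, the nearest being 711 bp away.

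Coa7 and Rab21 on X are transcribed away from each other from start sites 86 bp apart, and 1 peak served both. Coa7 is named for an assembly factor of cytochrome c oxidase and Rab21 for a small GTPase of endosomes. The summit lay 12 bp from the TSS of Coa7 and 74 bp from that of Rab21, with a signal of 165.1 at rank 4697. It was a top region in all 3 replicates, at ranks 4115, 5154 and 4726. Counted this way the 13 bound genes stand for 12 separate peaks.

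Of the genes long known from heterochromatin, light, the alpha catenin gene and CkIIalpha were bound, each weakly. The light gene (lt, 2L), a vacuolar sorting gene that loses activity when moved away from heterochromatin, had a signal of 172.0 at rank 4425. It ranked 2965 in replicate 1 and 9096 in replicate 3, and had no summit within 250 bp in replicate 2, where the nearest was 276 bp away. The gene alpha-Cat, which encodes the cell adhesion protein alpha catenin, had a signal of 161.1 at rank 4841 and ranked 4047, 4139 and 6531. CkIIalpha, the catalytic subunit gene of casein kinase II, had a signal of 156.4 at rank 5029 and ranked 2946, 5717 and 7942. Its peak stood at an alternative TSS inside the gene and not at the start that faces RpL10, 1601 bp from the RpL10 start. CkIIalpha and mRpS5 were bound only through a TSS other than the most upstream one.

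By replicate, 7 of the 13 bound genes had a top region in all 3 replicates, 4 in 2 and 2 in 1. An IDR summit together with a top region in all 3 replicates was thus found at 7.69% of pericentric genes, against 23.9% of other genes and 23.8% of all genes. No unbound pericentric gene had a top region in all 3. Spf30, which takes part in splicing, and MED21, a Mediator subunit gene, had one in 2 replicates without an IDR summit, and 7 more unbound genes had one in a single replicate.

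**Figure D3:**
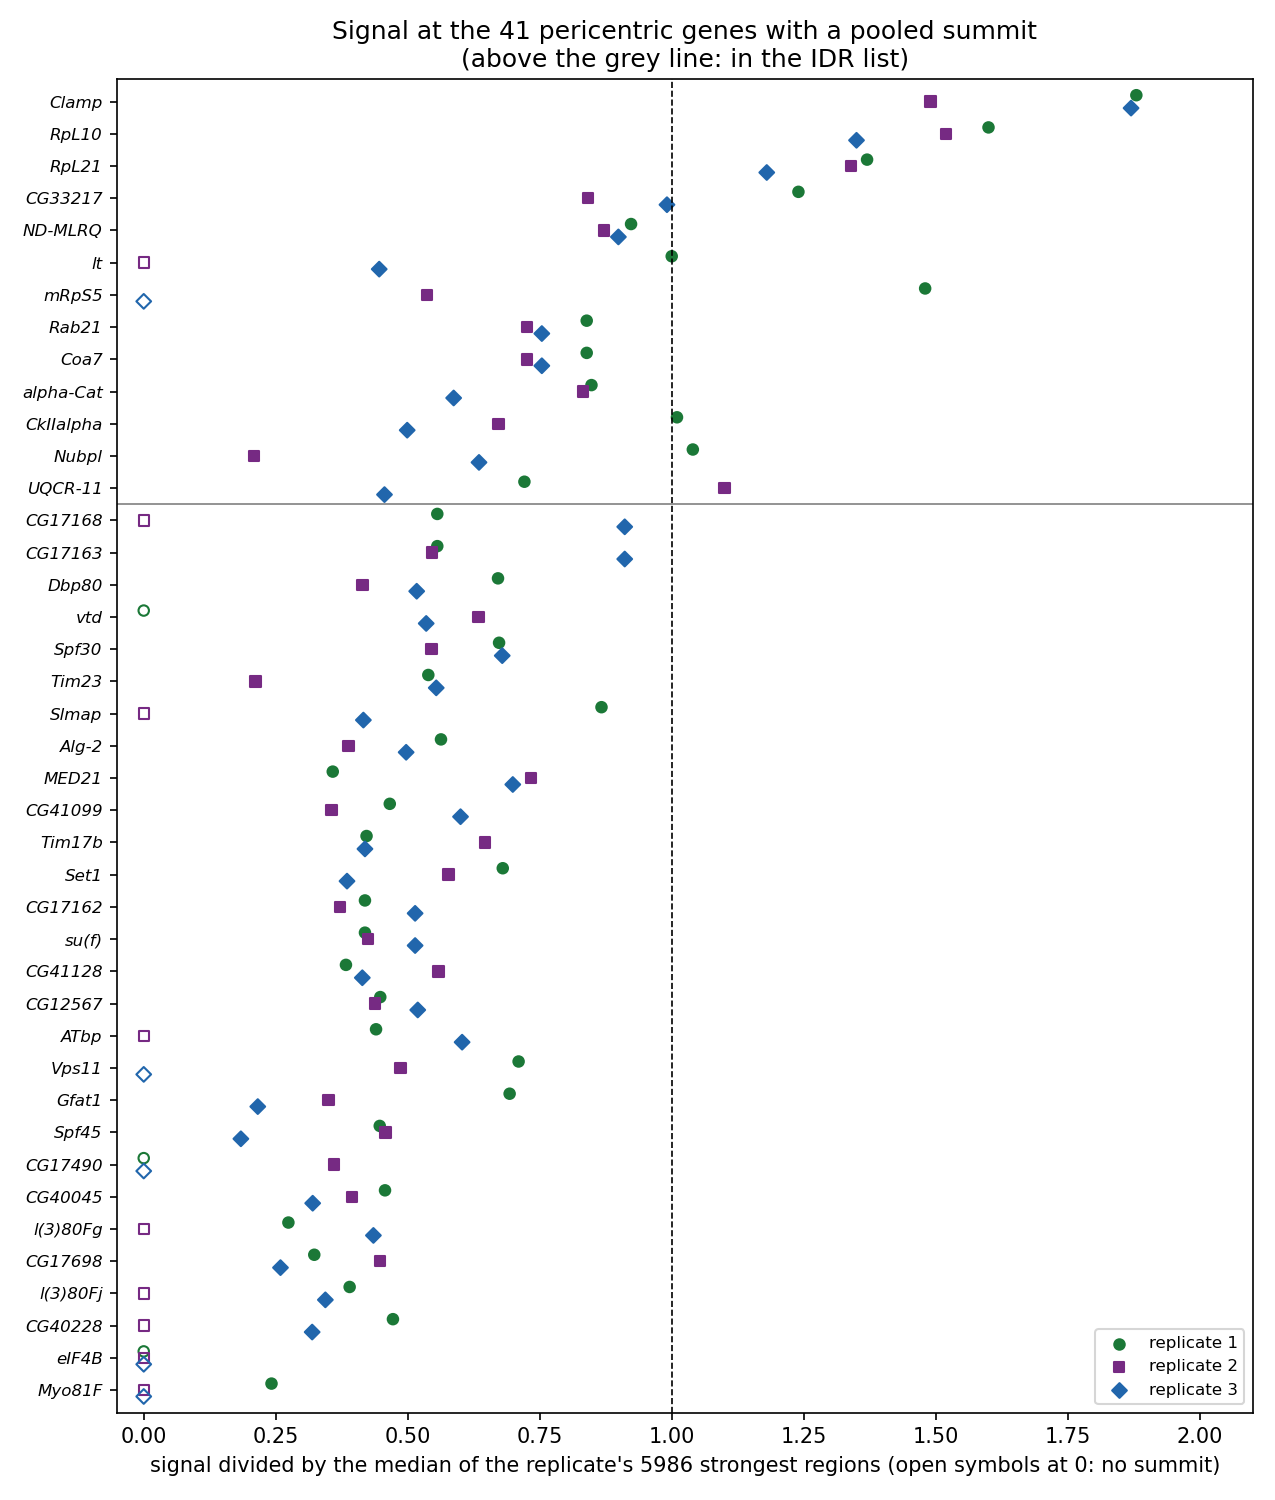
Signal at the 41 pericentric genes with a pooled summit, ordered by pooled rank, divided by the median signal of the top regions of each replicate (dashed line at 1); symbols are the 3 replicates and open symbols at 0 mark a replicate with no summit within 250 bp. Clamp, RpL10 and RpL21 lie above 1 in all 3 replicates, and the genes below the grey line, outside the IDR list, lie below 1 throughout.

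A further 28 pericentric genes had a summit in the pooled list but not in the IDR list, or 30.8% (interval 21.5% to 41.3%), against 18.7% of other genes and 18.8% of all genes. For this class of weaker regions the pericentric share was above that of other genes and of the distal flank (14.2%). It was below that of chromosome 4 genes (37.5%). A larger part of the pericentric genes was unbound and so could fall in this class. Among unbound genes the pericentric share was 35.9% (28 of 78, interval 25.3% to 47.6%). That interval holds the 28.2% of other genes, and the distal flank had 20.5% and chromosome 4 genes 69.8%. The 28 genes had a median signal of 100.7, at a median rank of 8440, against 76.11 at rank 11618 for the 2594 other genes of the same kind. Of the 28, 17 had a region in all 3 full replicate lists (60.7%, interval 40.6% to 78.5%), against 49.5% of the 2594. Relative to the median of the top regions, these genes had a median signal of 0.457, 0.443 and 0.506 in replicates 1, 2 and 3. Those medians cover only the 25, 20 and 24 of them with a region in the replicate. Bound genes had 1.01, 0.837 and 0.754, over the 13, 12 and 12 with a region. Both comparisons are descriptions of genes chosen by their region.

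The strongest of these weaker regions came close to the IDR list. The divergent pair CG17168 and CG17163 on X, with starts 29 bp apart, shared the strongest, at a signal of 133.4 and rank 6207, against 137.2 for the weakest IDR peak. Dbp80, an RNA helicase gene, followed at 125.4 and ranked 5727, 11207 and 7648 in replicates 1, 2 and 3. The cohesin subunit gene vtd (verthandi) had 125.1, with ranks of 6244 and 7328 in replicates 2 and 3 and the nearest summit of replicate 1 at 315 bp, outside the window. Tim23 and Tim17b, which encode parts of the mitochondrial import channel, had 123.9 and 101.7. MED21 and the histone H3 lysine 4 methyltransferase gene Set1, which overlap at their 3' ends on 3L, had 112.8 and 100.9. A second divergent pair, CG17162 and su(f), with starts 36 bp apart, shared a region of 100.8, and su(f) encodes a factor of messenger RNA 3' end cleavage.

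At the bottom of the list stood eIF4B and Myo81F. The translation factor gene eIF4B had a pooled signal of 39.49 at rank 25920 and no region within 250 bp in any replicate. Myo81F, an unconventional myosin gene of 1965857 bp and the longest of the 91, had 36.7 at rank 28300, with a region only in replicate 1 (rank 21684). Myo81F was thus close to the floor of the pooled list (34.97).

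The other 50 genes had no pooled summit within 250 bp, and 40 of them had none in any replicate. The remaining 10 had one in 1 or 2 of the full replicate lists. Tif-IA, which encodes an initiation factor of RNA polymerase I, was the only gene with its nearest IDR summit beyond 250 bp and within 500 bp of a TSS. Its peak had a signal of 146.3 and lay 325 bp away, while replicates 1 and 3 had summits at 82 and 4 bp, at ranks 7316 and 6989. The gene of the poly(ADP-ribose) polymerase Parp1 had its nearest pooled summit at 262 bp. A summit of replicate 3 lay 249 bp from it, at rank 14938. These genes just outside the window were counted as unbound.

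Among the 19 long-known heterochromatic genes of the list, 3 were bound, 6 had a weaker region and 10 had none. The 10 were cta, AGO3, Snap25, nvd, FASN3, Pzl, spok, Parp1, stnA and stnB. Those of ecdysone and lipid synthesis, nvd (neverland), spok (spookier) and FASN3, had no pooled summit within 27 kb, at nearest distances of 27958, 263982 and 249994 bp. For the Argonaute gene AGO3, which acts in the piRNA pathway, the nearest pooled summit was 24073 bp away. For Snap25, a synaptic membrane fusion gene, it was 38353 bp away. The start shared by stnA and stnB, both synaptic vesicle genes, had replicate summits at 369, 409 and 779 bp and its nearest IDR summit 3038 bp away. That summit lay 14 bp from the start of the non-coding gene asRNA:CR45009.

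The list named for chromatin, transcription and RNA had 4 of 12 genes bound and 6 with a weaker region. The 4 were the ribosomal protein genes RpL10, RpL21 and mRpS5 and the kinase gene CkIIalpha, and the list, made by symbol, does not hold Clamp (bound), Spf30 (weaker) or Tif-IA (none). Of 11 genes of membranes, signalling and synapses, 2 were bound (lt and alpha-Cat), 1 had a weaker region (Myo81F) and 8 had none. The 8 include the ionotropic receptor gene Ir40a, the acetylcholine receptor gene nAChRalpha4, the G protein gene cta, the mechanosensory channel gene Pzl and the synaptic vesicle transporter gene lovit. The 3 genes of ecdysone and lipid synthesis were all without a region. By contrast, 20 of 26 genes that encode heterochromatin proteins but lie elsewhere in the genome were bound (76.9%), 4 had a weaker region and 2 had none. All of these counts stand beside 33.4% of all genes bound.

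Most bound genes lay close to a boundary, and so did 48 of the 91 pericentric genes. Within 0.5 Mb of the boundary 10 of 48 genes were bound (20.8%) and 11 had a weaker region. From 0.5 to 1 Mb 1 of 17 was bound, from 1 to 2 Mb 1 of 10, and beyond 2 Mb 1 of 16, where 9 had a weaker region. In each range the share bound was below the 33.4% of all genes. Bound and weaker genes together made up 43.8%, 35.3%, 40.0% and 62.5% of the 4 ranges, against 52.2% of all genes. The 3 bound genes farther than 0.5 Mb in were lt, mRpS5 and UQCR-11.

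By arm, 3R was the one with no bound gene. On 2L 4 of 20 pericentric genes were bound, on 3L 7 of 37, on X 2 of 23 and on 3R 0 of 11, against 31.6%, 33.7%, 31.3% and 35.5% of the other genes of those arms. On 3R 6 of the 11 genes had a weaker region, among them Alg-2 (114.5), CG41099 (110.5), Tim17b (101.7) and Gfat1 (88.96). In the distal flank of 3R 46.4% of 233 genes were bound, and in that of 2L 17.7% of 271. On 2L the pericentric share, 4 of 20 genes, was not below that of the adjoining flank. With 11 to 37 genes to an arm, these shares carry wide counting error, and no test was made between arms.

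**Figure D4:**
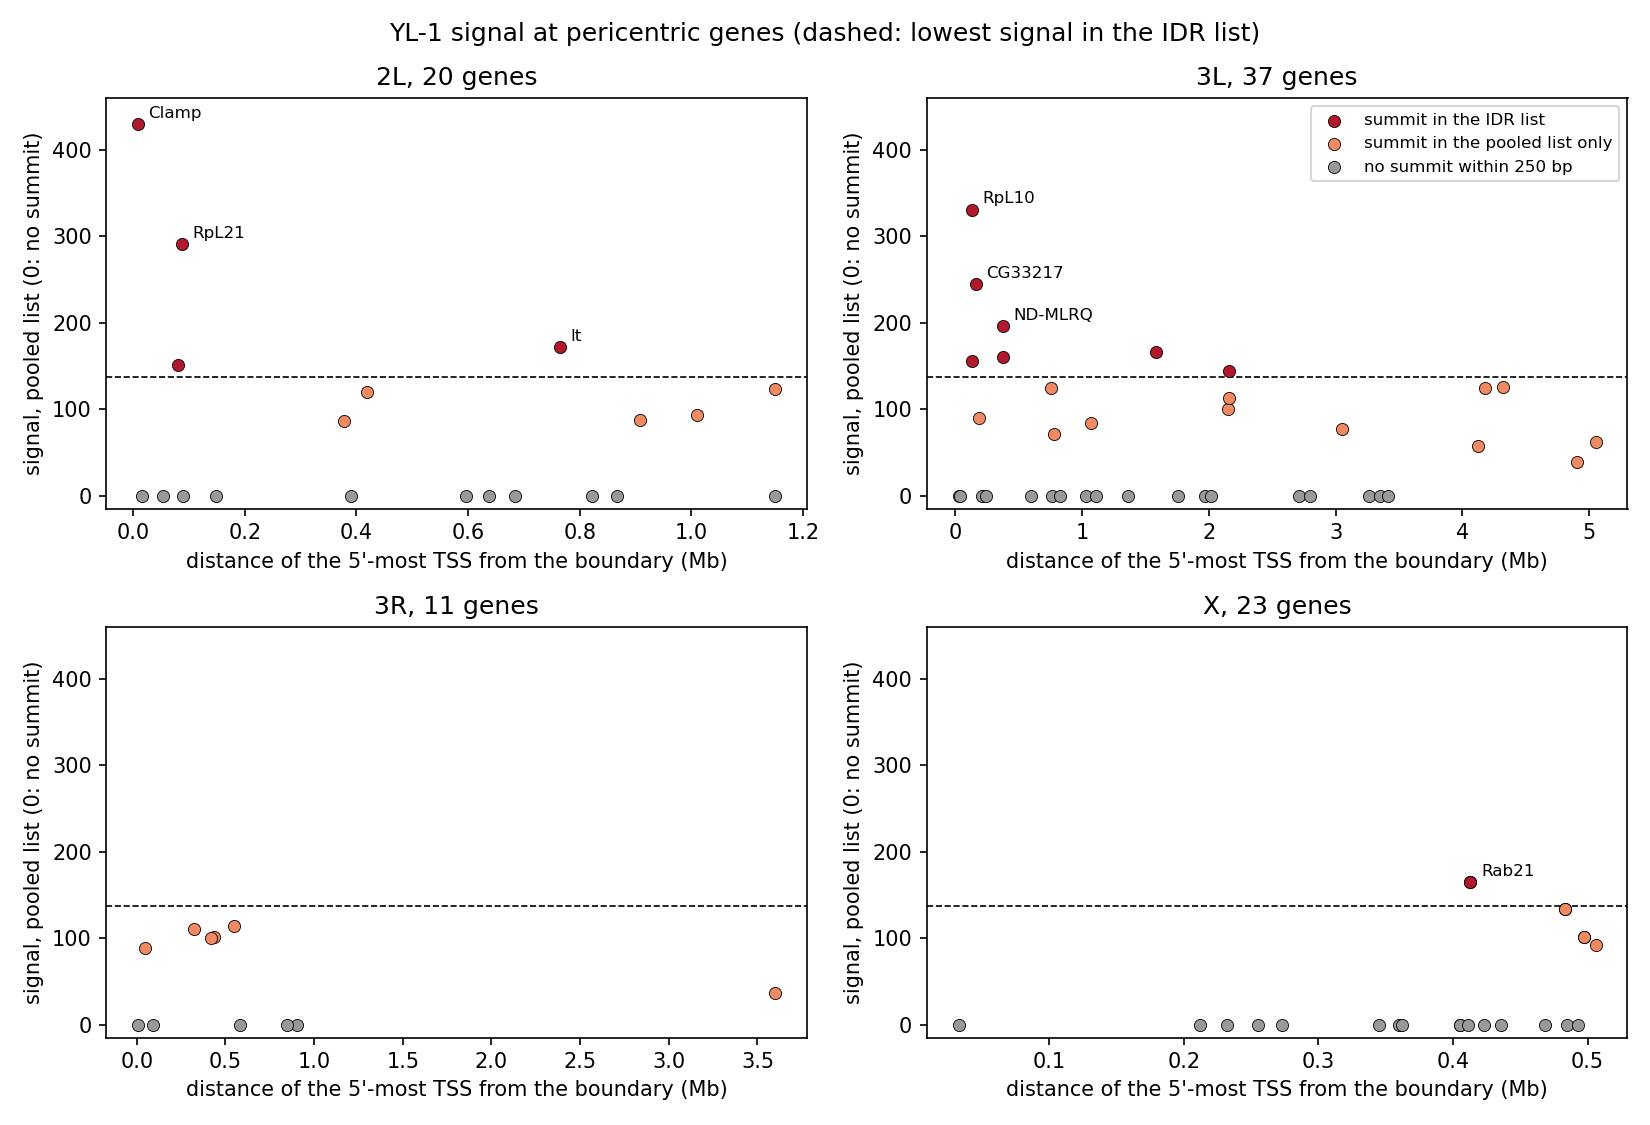
Pooled signal of the strongest region within 250 bp of a TSS against the distance of the gene from the boundary (Mb), for the 4 arms; points at 0 have no summit and the dashed line is the lowest IDR signal, 137.2. The 4 genes above 200 (Clamp, RpL10, RpL21 and CG33217) all lie within 0.2 Mb of a boundary, and 3R has none above the line.

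The pericentric genes were long, at a median of 8385 bp, against 2158 bp for the other genes. Chromosome 4 genes were longer still, at 10090 bp, and were bound at 46.2%. None of the 27 pericentric genes that exceed 20 kb was bound and 6 had a pooled region (22.2%), against 27.8% and 62.4% of the 986 other genes of that size. Of the 31 pericentric genes of 5 to 20 kb, 8 were bound (25.8%), against 41.8% of 2438 other genes, and of the 33 up to 5 kb, 5 were (15.2%), against 32.1% of 10430. With pooled regions included, the pericentric share was lower for genes of 5 to 20 kb (54.8% against 68.0%) and higher for genes up to 5 kb (54.5% against 47.6%). Summits inside gene bodies are given for pericentric genes only, with no value for other genes beside them. No IDR summit lay anywhere in the 27 longest genes. Myo81F (1965857 bp), Pzl (709421 bp), lovit (434041 bp) and CG40470 (146551 bp) held no pooled summit inside the gene either, and Snap25 (225026 bp) held 1. AGO3 (135048 bp) held 3, all farther than 250 bp from a TSS.

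Repeats near the start site were more frequent than elsewhere but differed little between bound and unbound pericentric genes. The repeat-masked share within 5 kb had a median of 30.6% at bound, 30.2% at weaker and 32.6% at empty pericentric genes. For other genes the same medians were 10.2%, 12.4% and 13.1%. Within 500 bp of the TSS, 50 pericentric genes had some but at most 25% masked bases, and 8 of these were bound (16.0%), against 33.8% of 12498 other genes. No pericentric gene lacked masked bases there, and 164 other genes did (15.2% bound). Above 25%, 5 of 41 pericentric genes were bound (12.2%), against 32.5% of 1192 other genes. How reads that match more than 1 repeat were handled is not given in the sources used here, and the part of repeats in the lower share was not tested. GC content within 250 bp of the TSS had a median of 33.3% at pericentric, 32.7% at chromosome 4 and 41.3% at other genes. The next protein-coding start lay at a median of 17618 bp for pericentric, 2403 bp for chromosome 4 and 1405 bp for other genes. Among pericentric genes this median was 2001 bp for bound genes and 28881 bp for those with no region. For other genes the same medians were 376 and 2031 bp.

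**Figure D5:**
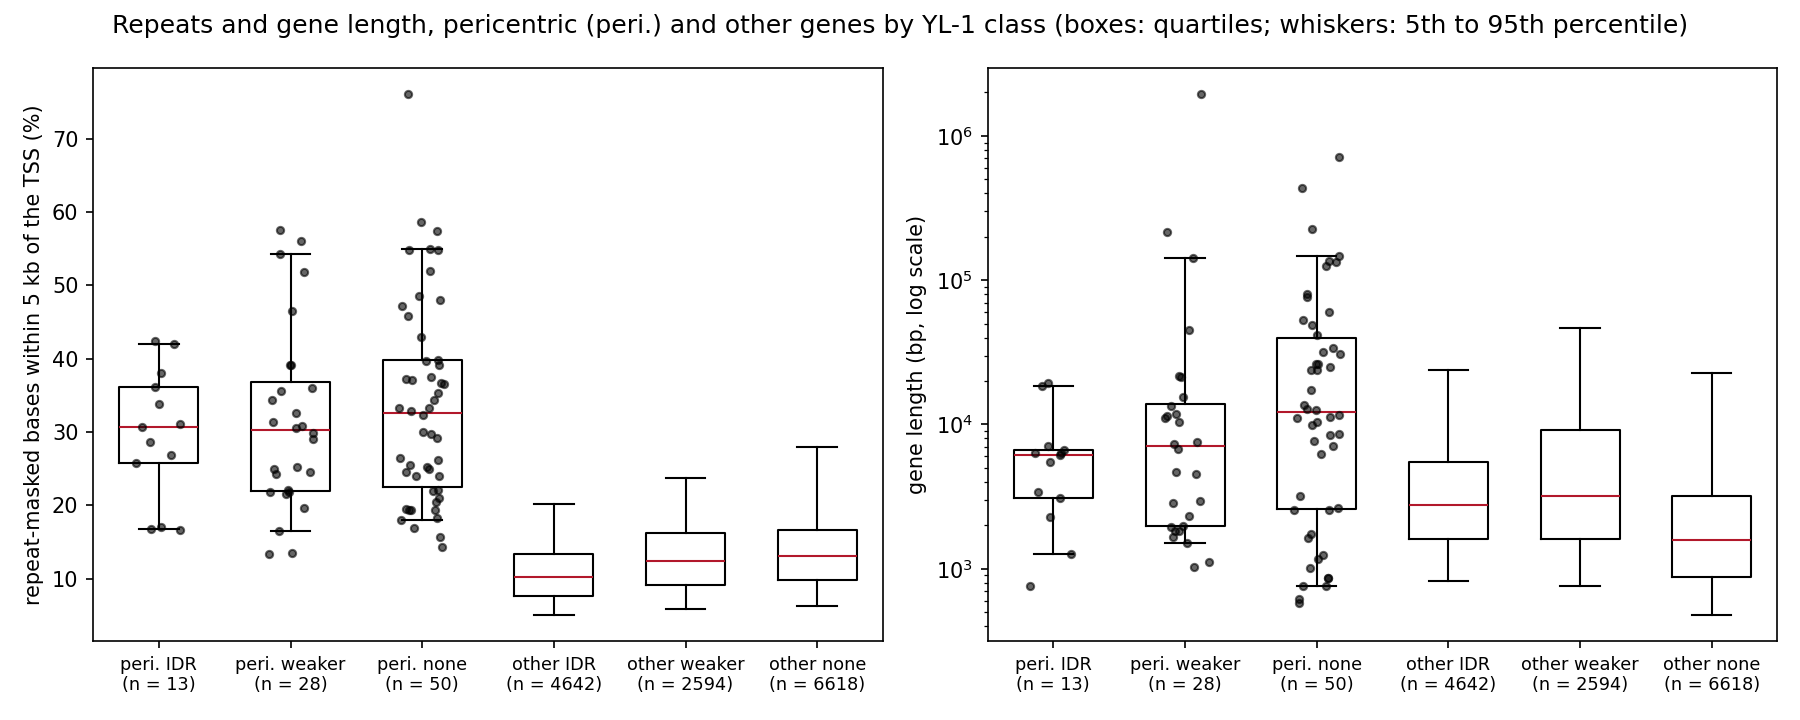
Repeat-masked bases within 5 kb of the TSS (%, left) and gene length (bp, log scale, right) for pericentric (peri.) and other genes with an IDR summit, a weaker pooled summit or none; boxes are quartiles, whiskers the 5th to 95th percentile, red lines medians, and points the pericentric genes. Repeat shares are alike in the 3 pericentric classes (medians 30.6%, 30.2% and 32.6%), and no bound pericentric gene exceeds 20 kb.

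Motifs were compared by the share of genes with a match. The window was centred on the TSS nearest the summit for bound genes and on the most upstream TSS for all others. The same held for repeats within 500 bp and GC content within 250 bp above, so the classes differ in how the start was chosen. Within 100 bp of the TSS the DRE stood at 0 of 13 bound pericentric genes, at 5 of 28 with a weaker region and at 0 of 50 with none, against 7.72% of all genes and 15.6% of bound other genes. The 5 were vtd, shown above, and CG17162, su(f), CG17698 and eIF4B, and the windows of CG17162 and su(f) overlap. The core of motif 1 stood at 1 of the 91, Clamp, which makes 7.69% of the 13 bound pericentric genes, against 6.86% of all genes and 15.7% of bound other genes. The E-box stood at 0 of the 13, against 14.1% of all genes and 21.8% of bound other genes. GAGAG stood at 1 of the 13 and at 14 of the 91 (15.4%), against 22.9% of all genes and 18.4% of bound other genes. The TATA box stood at 3 of the 13 (23.1%), against 20.7% of all genes and 14.2% of bound other genes. The initiator also stood at 3 of the 13, against 15.8% and 8.21% of the same sets. A match is a description of these letters in this window and says nothing of a factor there.

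Seen over all peaks, the segments held 16 IDR peaks, or 1.38 per Mb, against 48.8 per Mb in the rest of the arms. With the boundaries moved 500 kb the value was 0.312 per Mb (towards the centromere) or 5.73 per Mb (away from it). Per protein-coding gene this was 0.172 against 0.431, and per Mb of unmasked sequence 2.37 against 59.7. In the top regions the count was 29, 14 and 14 in replicates 1, 2 and 3, or 1.64 ± 0.745 per Mb (SD, n = 3), against 48.8 ± 0.0577. Of the 16 peaks, 13 had their summit within 250 bp of a protein-coding TSS (81.2%, interval 54.4% to 96.0%), against 73.0% elsewhere, and the replicates gave 80.1% ± 5.06 against 71.1% ± 1.25 (SD, n = 3). The 13 comprise the 12 peaks of the bound genes and that of RpL5 (266.9, rank 1958). The others were the second Clamp peak, the Tif-IA peak and the peak at asRNA:CR45009 on X (142.6, rank 5696), which overlapped a top region in 1 replicate. Summits fell in repeat-masked bases for 2 of the 16 (12.5%), against 17.0% elsewhere.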

How the data were processed

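YL-1 was mapped in 3 replicates of 1 group. The deposited files are narrowPeak region lists for each replicate, for the pooled libraries and for the peaks past the authors' irreproducible discovery rate threshold, per the file inventories. Which aligner and peak caller made them is not given in the sources used here. Signal is the authors' value for each region, as deposited. Its scale differs between libraries, so it was ranked and compared only within a list. Summits were placed with the deposited offset column. It marks the middle of the region for 70.0% of IDR peaks and, depending on the replicate, 97.3% to 98.8% of the others. The lists hold no read counts, so depth is unknown, and intervals cover the counting of genes or peaks only. Only the dm6 lists were used for genes.

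Genes and start sites came from Ensembl release 115 and sequence and repeat masking from the RefSeq copy of the same assembly. The 5986 IDR peaks equal the 5986 strongest pooled regions. A gene was called at a summit within 250 bp of any of its starts. Replicates were compared by means with SD and by exact sign-flip permutation tests over 3 replicates. The steps were tested on simulated data and against bedtools. Python 3.11.15 was used with matplotlib 3.10.9, scipy 1.17.1, pandas 2.3.3 and numpy 2.4.6.

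The members and the gene lists were chosen with earlier results of these data known. Named genes were the bound members, those with an IDR summit beyond 250 and within 500 bp, unbound members with a top region in all 3 replicates and the members of the lists. The promoters of vtd and Coa7, the other genes named for weaker regions, long bodies or missing regions, the ranges of distance, length, repeats and rank, and chromosome 4 left out of the other genes were chosen after values were seen. Windows, lists, start sites, boundaries and replicates were varied.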

Additional observations from a re-analysis of the deposited data

Results flagged for a closer look

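Each list was also deposited in the older dm3 build, which was not used in the comparisons above. That build holds part of the heterochromatin on separate contigs, and much of their sequence was later taken into the arms of Release 6. The regions counted here can therefore be the same DNA as regions of the dm6 lists, and they were not matched to them. The pooled dm3 list had 73 of its 30000 regions on the contigs named for the heterochromatin of an arm, the strongest at rank 5798. The replicate lists had 90, 56 and 96 regions there. The IDR list of dm3, with 5389 peaks, had 0 on these contigs. On the contig of unmapped sequence named U the IDR list had 1 peak and the pooled list 3 regions, the strongest at rank 4466 in both. There are no control samples to set beside these counts.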

How the results depend on the processing

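No paired analysis was possible because the series has 1 group of samples. The difference in share, pericentric minus other genes, stayed negative in the 16 alternatives tried, from -24.4 points with the boundaries 500 kb towards the centromere to -7.18 points in the whole pooled list, and from -19.3 to -15.6 with a replicate left out (exact sign-flip p = 0.5, the smallest for 2 replicates). The signal ratio stayed below 1 in its 11 alternatives, at 0.735 to 0.766 with a replicate left out. It ran from 0.623 in the whole pooled list to 0.973 with the boundaries 500 kb away from the centromere. In that last setting the ratios of the single replicates were not all below 1.

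The share of pericentric genes bound was 14.3%, against 33.5% of other genes. It was 6.59% against 23.7% with a 100 bp window, with 6 of 91 genes bound and Clamp, RpL21, ND-MLRQ, lt, mRpS5, CkIIalpha and UQCR-11 lost. For other genes it was 37.8% and 41.0% with 500 and 1000 bp. It was 4.4% against 21.0% for peaks above the median signal, 7.69% against 26.0% for peaks in a top region of every replicate, and 45.1% against 52.2% in the pooled list. With 3000 and 10000 top regions per replicate the mean shares were 5.49% and 30.0%, against 20.6% and 39.8%. For other genes it was 30.7% with the most upstream TSS only and 27.5% with each summit given to its nearest TSS. Boundaries 500 kb towards the centromere left 3 of 43 genes bound (6.98%), and 500 kb away from it 62 of 284 (21.8%). Leaving out a replicate gave 8.79% to 12.1%, against 27.7% to 28.4%. These values, and those of the next paragraph with a replicate left out, are of regions shared by the remaining replicates. They are not of the IDR list, so the measure differs from that of the main values. Leaving out chromosome 4, tried after seeing the data, gave 33.4% for other genes.

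The promoter share of the summits in the segments, 81.2%, was 31.2% at 100 bp, 93.8% at 500 and 1000 bp, 87.5% for peaks in every replicate, 35.4% in the pooled list, 100% with boundaries towards the centromere (3 peaks), and 76.5% to 90.0% with a replicate left out. The 1.38 peaks per Mb became 0.517 above the median signal, 12.4 in the pooled list, 0.312 and 5.73 with boundaries towards and away from the centromere, and 0.861 to 1.46 with a replicate left out. With no read counts, a gene without a summit was not detected at an unknown depth. With 3 replicates no sign-flip test can give a p below 0.25.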
